A study of Mus musculus with 4 samples.

Results

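The NF-kB subunits and their feedback inhibitors were followed as 10 genes: the subunit genes Rela, Rel, Relb, Nfkb1 and Nfkb2, and the inhibitor and cofactor genes Nfkbia, Nfkbiz, Tnfaip3, Bcl3 and Ier3. Their probe sets were found by gene symbol in the platform annotation, and the genes themselves were picked with earlier results of these data known. That annotation held 14 probe sets for 9 of the 10 genes, out of 12393 genes with a symbol in all, while Nfkb1 had no listed probe set and was not analysed here. RNA of mouse CH10T1/2 cells, a fibroblast line of embryonic origin, was hybridised to the Affymetrix Mouse Genome 430A 2.0 platform, with 1 array for each of 4 groups. The groups were cells with the R150C variant of the PTH and PTHrP receptor PTHR1 given PTHrP at 1e-07 M for 1 h, the same R150C cells without PTHrP, cells with the wild-type (WT) receptor given PTHrP at the same dose and time, and WT cells without PTHrP. All 4 groups shared stable transfection with a PTHR1 and a night in serum-free medium. The R150C control is labelled as carrier-treated, and the WT control is labelled only as control. The variant was found in enchondromas, benign tumours of cartilage, per the labels. Each receptor is represented by 1 transfected line, so receptor and line cannot be told apart, and the sources used here do not say whether a line is a clone or a pool.

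NF-kB is a family of dimeric transcription factors held in the cytoplasm by IkB proteins. Signals such as TNF, IL-1 or microbial products activate the IkB kinases, IkB is phosphorylated and degraded, and the freed dimers enter the nucleus and bind kB sites in DNA. Their targets include the genes of their own inhibitors, so the response is followed by a feedback that switches it off, and the RNA of these feedback genes is a common readout of the pathway. In fibroblasts the pathway is known for chemokine, cytokine and prostaglandin synthesis genes.

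RefSeq promoter windows (build GRCm38.p6) were at hand for 7 of the 10 genes, and the 250 bases before the gene start were searched on both strands for the kB consensus and for the shorter, palindromic kB motif GGAANTTCC, which can overlap a consensus match. The consensus reads GGG, a purine, any pair of bases, a pair of pyrimidines and CC. Matches on the other strand are printed as they read in the window. Both motifs were chosen after the windows had been seen, so the counts describe these windows and are not a test. The consensus was present in 5 of the 7 genes and the short motif in 3, against 8.23% and 0.944% of the 27025 genes with a window. The genes with the short motif are shown because they hold the member with the largest difference between the lines, Ier3, the next one, Tnfaip3, and the classical feedback gene Nfkbia. The windows are chr17:35821463-35821712 on the + strand for Ier3, chr10:19015411-19015660 on the - strand for Tnfaip3 and chr12:55492648-55492897 on the - strand for Nfkbia. They read 5′ to 3′ towards the gene start, with every match to either motif in capitals:
Ier3: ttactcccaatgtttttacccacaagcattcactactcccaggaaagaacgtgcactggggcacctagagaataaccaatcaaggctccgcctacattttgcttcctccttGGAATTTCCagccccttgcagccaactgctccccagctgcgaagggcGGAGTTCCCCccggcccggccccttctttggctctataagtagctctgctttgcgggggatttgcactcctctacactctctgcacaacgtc
Tnfaip3: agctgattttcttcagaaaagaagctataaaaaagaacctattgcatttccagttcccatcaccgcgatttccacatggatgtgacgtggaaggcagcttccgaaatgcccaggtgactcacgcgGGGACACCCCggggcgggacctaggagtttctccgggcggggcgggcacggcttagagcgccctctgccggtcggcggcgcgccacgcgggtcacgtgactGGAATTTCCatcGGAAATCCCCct
Nfkbia: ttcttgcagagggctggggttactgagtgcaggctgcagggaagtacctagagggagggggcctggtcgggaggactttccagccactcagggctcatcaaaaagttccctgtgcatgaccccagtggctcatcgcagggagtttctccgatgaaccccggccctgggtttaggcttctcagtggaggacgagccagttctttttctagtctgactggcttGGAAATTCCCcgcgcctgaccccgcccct
The short motif began 139 bases before the start of Ier3, 24 bases before that of Tnfaip3 and 29 bases before that of Nfkbia. The consensus without the short motif was found in Rel, where the first match was GGGAAATCCC at 92 bases before the start, and in Nfkb2, where it was GGGAATTCCC at 39 bases in the first of 3 windows. No match lay in the windows of Rela and Bcl3 or in the second window of Tnfaip3. A match describes the letters of these windows and was not tested as a binding site.

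Each deposited probe set value is a brightness in linear units, here the signal, scaled by the authors so that the trimmed mean of each array is 150.1. Values of different probe sets are not compared with each other, since probes bind with different strength. All differences were taken between values of log2(signal + 16), once each array had been centred on its median over the 6197 kept genes, those whose mean over the 4 arrays was at or above the median of all genes, which stands for a signal of 62.6. The brightest probe set stood for a gene. With 1 array per group, single contrasts are values with no test. The difference between the lines over both media, and the PTHrP difference over both lines, were tested with limma's additive model. Its error comes from how far the 4 arrays depart from an additive pattern, which leaves 1 residual degree of freedom before moderation across genes. That departure put the SD of an array pair difference at 0.25 over the kept genes. With all genes cut into 5 equal bins of brightness, it was 0.21 in the brightest bin, 0.25, 0.32 and 0.42 in the next 3 and 0.35 in the dimmest.

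Of 12 fibroblast markers 10 were above the filter. The signals of all 12 summed to 35082.4 and 37432.5 in the R150C line (PTHrP, control) and 46023.8 and 40429.9 in the WT line. Pdgfra was called lower in the R150C line (-0.55, limma adjusted p = 0.0427). Dcn and Lum were not above the filter, with signals between 4.6 and 38.9. NF-kB genes are also abundant in immune cells. Of 8 macrophage markers 2, Cd14 and Csf1r, were above the filter. The signals of all 8 summed to 294.6 and 334.2 in the R150C line and 281.4 and 361.4 in the WT line. For lymphocyte markers 0 of 5, for endothelial 0 of 5 and for epithelial 1 of 5 were above the filter. In RNA of whole cultures, fewer cells of a type and less RNA per cell cannot be told apart. For the Gapdh controls, the 3′ signal over the 5′ signal, a measure of RNA integrity and labelling, was 1.21 and 0.991 in the R150C line (PTHrP, control) and 1.17 and 0.845 in the WT line, and for beta-actin the ratio was 2.31, 2.13, 2.39 and 1.42 in the same order.

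**Figure D1:**
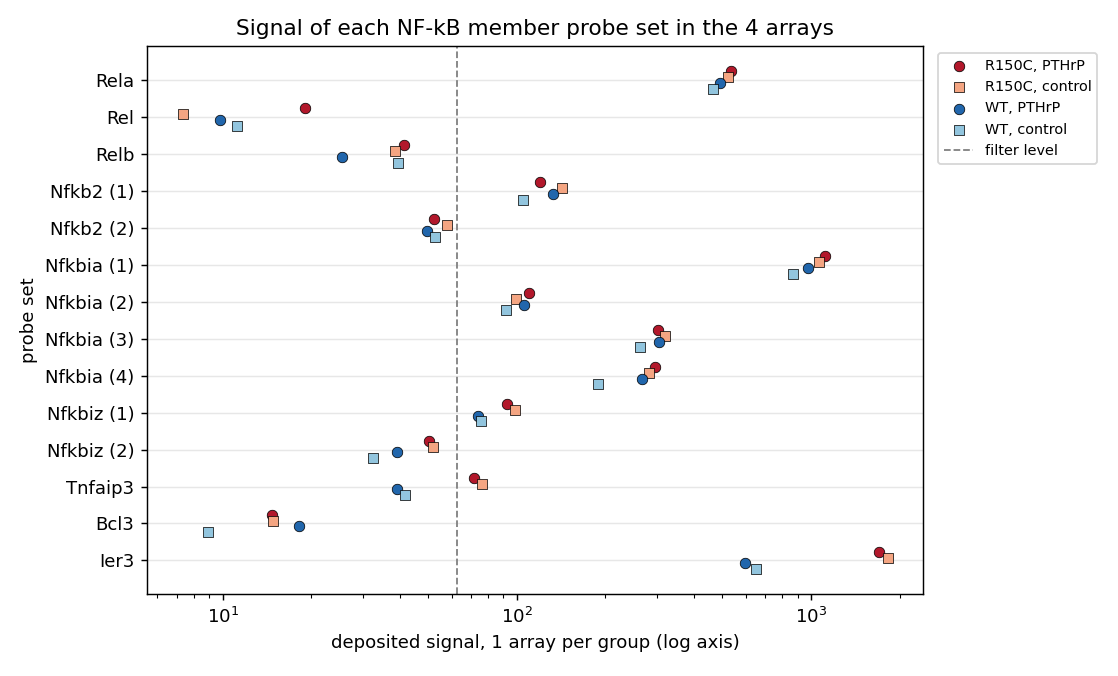
Deposited signal (log axis) of the 14 member probe sets, a point for each of the 4 arrays, with circles for PTHrP, squares for control, red shades for the R150C line and blue shades for the WT line. The R150C points of Ier3 lie at 1708.4 and 1828.8, right of the WT points at 596.2 and 650.5, and those of Tnfaip3 lie right of the WT points as well. The dashed line marks the filter level of 62.6, and bracketed numbers tell the probe sets of a gene apart, the brightest being 1.

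Set between the lines, the comparison asked whether cells with the R150C receptor hold more or less RNA of the NF-kB core than cells with the WT receptor. Ier3 was higher in the R150C line in both media by nearly the same amount, Tnfaip3 read higher by a smaller amount but lay below the filter, and the subunits and Nfkbia differed by less. Over both media the difference was above 0 in 9 of the 9 measured genes, from 0.05 to 1.46. Of the 5 members above the filter it was above 0 in 5, beside 41.2% of all kept genes. In 4 of the 9 measured genes, Nfkb2, Rel, Relb and Bcl3, the sign of the difference was not the same in the 2 media. The share of all genes with such a change of sign was not counted. For Relb the control medium value of -0.06 became 0.06 with centring on all probe sets, 0.04 after quantile normalization and 0.009 with probe sets averaged per gene, and the media then shared the sign. Of the 5 members above the filter limma called 1 higher and 0 lower at an adjusted p of 0.05, beside 5.52% of all kept genes called higher and 4.18% called lower. The median difference of these 5 was 0.21, beside -0.06 over all kept genes.

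Ier3, an immediate early gene known as an NF-kB target that acts on cell survival and ERK signalling, had signals of 1708.4 (PTHrP) and 1828.8 (control) in the R150C line, against 596.2 and 650.5 in the WT line. The R150C signal was 2.87 times the WT signal under PTHrP and 2.81 times in control medium. On the centred log2 scale the differences were 1.47 and 1.44, each past 2-fold, as were 2.16% of kept genes upwards and 0.726% downwards under PTHrP and 2.03% and 0.968% in control medium. Ier3 was the 1 member past 2-fold in either medium. Fitted over both media its difference was 1.46 (SE 0.15, 95% interval 1.13 to 1.78, n = 4 arrays, limma adjusted p = 0.000133), at rank 48 from the highest of 6197 genes. Without the filter, over 12393 genes, the difference was the same and the adjusted p was 0.0634, which ends the call. It rests on 1 probe set.

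Tnfaip3 encodes a ubiquitin-editing enzyme that shuts off signalling from TNF and IL-1 receptors towards the IkB kinases. Its signals were 71.6 and 76.3 in the R150C line (PTHrP, control) and 39.2 and 41.8 in the WT line, a ratio of 1.83 in each medium. The log2 differences were 0.65 and 0.64, about 2 times the SD of 0.32 of an array pair in its brightness bin. Its mean stood for a signal of 55.3, under the filter, and it was not tested. Without the filter limma's adjusted p was 0.203. When probe sets were averaged per gene, Tnfaip3 lay above the filter, the difference was 0.68 and limma's adjusted p was 0.0153. With its single probe set its signals were the same there, and only the filter level and the centring moved. Its mean was raised by the R150C arrays, so this call adds no support to the difference.

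Nfkbia encodes IkB-alpha, the inhibitor that is rebuilt first after NF-kB activation, and had 4 probe sets. The brightest read 1113.7 and 1063.1 in the R150C line (PTHrP, control) and 974.5 and 867.8 in the WT line. Its differences were 0.17 under PTHrP and 0.26 in control medium, and 0.21 over both media (SE 0.15, 95% interval -0.11 to 0.54, limma adjusted p = 0.399). The other probe sets, in order of probe set number, gave 0.03, -0.04 and 0.12 under PTHrP and 0.06, 0.23 and 0.50 in control medium. The WT control array was the lowest of the 4 arrays in each of the 4 probe sets, and the same array had the lowest Gapdh ratio. The part of RNA integrity in this was not tested. The last of these probe sets carries the suffix by which Affymetrix marks probes shared by several transcripts.

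Nfkbiz, a nuclear IkB protein that works as a cofactor at secondary response genes, read 92.4 and 98.7 in the R150C line against 73.9 and 75.3 in the WT line. The second probe set read 50.1 and 51.7 against 39.1 and 32.3. The difference over both media was 0.27 (SE 0.15, 95% interval -0.05 to 0.60, limma adjusted p = 0.275) for the brightest and 0.35, untested, for the second. Bcl3, another nuclear IkB protein, which binds dimers of the Nfkb1 and Nfkb2 products, had 14.7 and 14.8 in the R150C line and 18.2 and 8.9 in the WT line. These signals are far below the filter and the lines overlapped.

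Among the subunits, Rela, which carries the main transactivating function of the canonical dimer, read 535.8 and 521.4 in the R150C line (PTHrP, control) and 491.4 and 463.1 in the WT line, a difference of 0.12 over both media (SE 0.15, 95% interval -0.21 to 0.44, limma adjusted p = 0.658). That interval lies within a 2-fold change in either direction, but it rests on 1 array per group and 1 transfected line per receptor. Nfkb2, the precursor subunit of the non-canonical route, had 120.1 and 142.3 in the R150C line and 132.7 and 104.6 in the WT line, with no order between the lines. Its fitted difference was 0.11 (SE 0.17, 95% interval -0.26 to 0.47, limma adjusted p = 0.731), and its second probe set read 52.3 and 58.1 against 49.4 and 52.5. Rel, the subunit best known from lymphocytes, read 19.1 and 7.3 in the R150C line and 9.8 and 11.2 in the WT line. Relb, which pairs with the Nfkb2 product, read 41.2 and 38.4 in the R150C line and 25.5 and 39.5 in the WT line. Both lay below the filter, and in both the R150C line read higher under PTHrP, by 0.42 and 0.44, while the control medium gave -0.26 and -0.06.

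**Figure D2:**
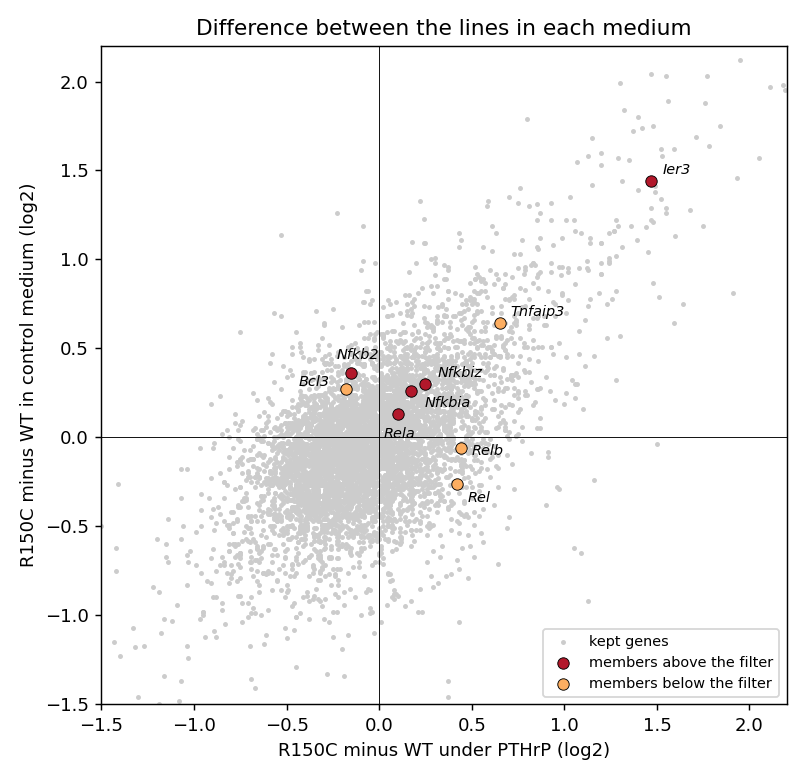
R150C minus WT in log2, under PTHrP on the horizontal and in control medium on the vertical axis, with kept genes as grey points, members above the filter in red and members below it in orange. Ier3 lies at 1.47 and 1.44 and Tnfaip3 at 0.65 and 0.64, while the other 7 members lie within 0.5 of 0 on both axes. The axes run from -1.5 to 2.2, and 34 kept genes lie outside them.

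The comparison of PTHrP with control asked whether 1 h of ligand moves the pathway, and 1 h is within the time in which NF-kB feedback genes are known to respond to their usual stimuli. None of the 5 members tested was called, and on the log2(signal + 16) scale none of the 9 measured members reached 2-fold in a single line. As plain signal ratios Rel stood at 2.62 in the R150C line and Bcl3 at 2.04 in the WT line, both at signals under 20. In the R150C line 0.145% of kept genes were past 2-fold in either direction after PTHrP, and in the WT line 0.387%. Over both lines limma called 0.0% of the 6197 kept genes, with 345 at an unadjusted p under 0.05 and a smallest adjusted p of 0.564. The Gapdh ratio was higher with PTHrP in both lines, and its part in any PTHrP difference was not tested.

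The feedback genes that usually answer first differed little by their brightest probe sets. Nfkbia differed by 0.06 in the R150C line and 0.14 in the WT line, or 0.10 over both (SE 0.15, 95% interval -0.22 to 0.43, limma adjusted p = 0.956). Ier3 differed by -0.11 and -0.14, or -0.12 over both (95% interval -0.45 to 0.20, limma adjusted p = 0.947), and Nfkbiz by -0.09 and -0.04 (over both -0.07, 95% interval -0.39 to 0.26, limma adjusted p = 0.974). Tnfaip3, untested, differed by -0.08 and -0.09. By the brightest probe set, each of these 4 genes stayed within the SD of an array pair of its brightness bin in both lines. For the tested 3 the intervals over both lines lie inside a 2-fold change. They rest on no replicate of a group and do not bound the response of a single line. The other probe sets of Nfkbia, in order of probe set number, differed by 0.12, -0.09 and 0.06 in the R150C line and by 0.15, 0.18 and 0.43 in the WT line. The 0.43 is past the SD of 0.25 of an array pair at that brightness. The signs of Nfkbiz, Tnfaip3 and Ier3 in the WT line depended on the scaling and stood at 0.15, 0.10 and 0.05 with centring on all probe sets.

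The subunits and Bcl3 moved less evenly. Rela differed by 0.03 in the R150C line and 0.06 in the WT line (over both 0.05, 95% interval -0.28 to 0.37, limma adjusted p = 0.985). Nfkb2 differed by -0.23 and 0.28 by its brightest probe set (over both 0.03, 95% interval -0.34 to 0.40, limma adjusted p = 0.993) and by -0.13 and -0.09 by the other, so its probe sets did not share the sign in the WT line. The other probe set lay below the filter, and its mean stood for a signal of 53.0. Rel differed by 0.58 and -0.10, Relb by 0.06 and -0.44 and Bcl3 by -0.01 and 0.44, all 3 from signals below 42, where the SD of an array pair was 0.35 to 0.42. The 0.58 of Rel rests on signals of 19.1 with PTHrP and 7.3 without and became 1.27 with a pseudocount of 1 and 0.21 with 64.

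**Figure D3:**
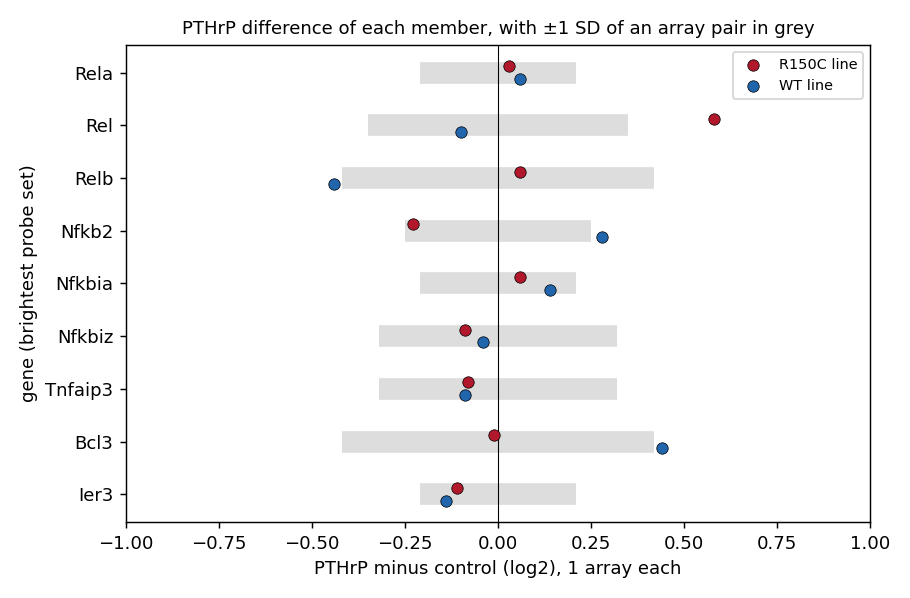
PTHrP minus control in log2 for the brightest probe set of each member, red for the R150C line and blue for the WT line, 1 array on each side of a difference. Grey bars span 1 SD of an array pair on each side of 0, taken from genes of the same brightness bin. Ier3, Nfkbia, Nfkbiz, Tnfaip3 and Rela lie inside the bars in both lines, and Rel in the R150C line lies farthest out at 0.58.

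The other genes of the pathway were read from 7 lists with 92 genes, of which 47 were above the filter. Between the lines limma called 9 of these 47 higher and 3 lower, and over PTHrP 0, beside the shares of all kept genes given above. The lists were written when values of several of these genes were already known, and the counts are a description. Lif, Tnfrsf1b and Traf5, counted among the 9, passed the filter only through the R150C line.

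Of 26 listed target genes 12 were above the filter. These 12 had 6 genes called higher and 2 called lower in the R150C line and a median difference of 0.86. Lif, an IL-6 family cytokine, was higher by 2.40 (SE 0.16, limma adjusted p = 6.75e-06), with signals of 194.3 and 225.2 in the R150C line against 29.9 and 22.4 in the WT line. Both WT signals of Lif lay below the filter level of 62.6, so it entered the test only through the R150C line. Ptgs2, the inducible prostaglandin synthase, was higher by 2.04 (adjusted p = 1.15e-05), the macrophage growth factor Csf1 by 1.82 (adjusted p = 2.79e-05), the monocyte chemokine Ccl2 by 1.71 (adjusted p = 4.62e-05), the caspase inhibitor Cflar by 1.36 (adjusted p = 0.000286) and the stress sensor Gadd45b by 1.21 (adjusted p = 0.000439), all by limma. When the probe sets of a gene were averaged, the difference was 1.34 in Lif, 1.03 in Csf1 and 0.80 in Cflar, and Lif and Cflar were then not tested. Lower were Irf1, an interferon pathway transcription factor, by -0.69 (limma adjusted p = 0.0145), and the neutrophil chemokine Cxcl1, with signals of 56.9 and 69.4 in the R150C line against 101.6 and 109.2 in the WT line and a difference of -0.65 (limma adjusted p = 0.0197). The antioxidant enzyme Sod2 and the adhesion molecule Vcam1, picked after their values were seen, did not pass, at -0.07 and -0.21 (limma adjusted p = 0.825 and 0.402). Below the filter Il6, picked after its values were seen, read 77.2 and 89.2 in the R150C line and 22.3 and 27.5 in the WT line. Ccl7, Cxcl2, Icam1, Plau and Nos2, also below it, read higher in both R150C arrays than in both WT arrays. For Nos2 these were signals of 3.4 and 4.4 against 2.5 and 3.0. The share of all genes whose lines separate in this way was not counted, so such an order is only a description. In the remaining target genes below the filter, Ccl5, Ccl20, Csf2, Cxcl5, Cxcl10, Mmp3, Mmp9 and Traf1, the lines overlapped. Apart from Il6 and Ccl7, the signals of these target genes were 42.9 or less.

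Upstream, the 16 cytokines and receptors held 5 kept genes. The receptor of the cytokine TWEAK, Tnfrsf12a, read 4207.8 and 4860.1 in the R150C line and 1258.0 and 1461.4 in the WT line, higher by 1.70 (SE 0.15, limma adjusted p = 4.62e-05). The second TNF receptor, Tnfrsf1b, was higher by 0.66 (limma adjusted p = 0.0181), while the first, Tnfrsf1a, picked after its values were seen, differed by -0.17 (limma adjusted p = 0.504). Tnfrsf1b passed the filter only through its R150C signals of 97.7 and 110.3, with 57.5 and 59.8 in the WT line. The IL-1 receptor Il1r1, picked after its values were seen, lay below the filter with 89.4 and 85.7 in the R150C line and 11.4 and 11.1 in the WT line. In the other receptors below the filter, Tlr2, Tlr4, Cd40 and Tnfrsf11a, the lines overlapped, while Tlr3 read lower in the R150C line (14.6 and 2.9 against 25.9 and 21.5). Of the ligands Tnf and Il1a, also picked afterwards, the signals were low in every array, with Tnf between 3.9 and 8.4 and Il1a between 3.5 and 14.5. The ligand Il1b, below the filter as well, read 35.1 and 52.0 in the R150C line and 24.8 and 39.6 in the WT line, which overlapped. Of 7 kept adaptors and ubiquitin ligases, Traf5 was higher by 0.77 (limma adjusted p = 0.00861) and Traf2 lower by -0.91 (limma adjusted p = 0.00315), with signals of 77.0 and 77.5 in the R150C line against 149.6 and 162.7 in the WT line. Both are adaptors of TNF receptors. Traf5 passed the filter only through its R150C signals of 94.1 and 94.7, with 51.7 and 43.7 in the WT line.

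Among the IkB kinases, the other IkB proteins, the other negative regulators and the partner genes, limma called no gene. Of 8 kept IkB kinase genes and activators the farthest were Tab3 at 0.37 (limma adjusted p = 0.148) and the regulatory subunit Ikbkg at -0.28 (limma adjusted p = 0.299). Of 8 other negative regulators they were Commd1 at -0.28 and Pdlim2 at -0.22, and of 6 partner and modifier genes Rps3 at -0.26 and Csnk2a1 at -0.22, each with a limma adjusted p of 0.265 or more. Nfkbib, the 1 kept gene among the other IkB proteins, differed by -0.06 between the lines (limma adjusted p = 0.845) and by -0.56 and -0.41 after PTHrP in the R150C and the WT line (over both -0.49, limma adjusted p = 0.773). Without the filter, limma's adjusted p passed 0.05 in 8 of the 12 called pathway genes, from 0.0515 in Ccl2 to 0.209 in Cxcl1, and the calls of Lif, Ptgs2, Csf1 and Tnfrsf12a held.

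**Figure D4:**
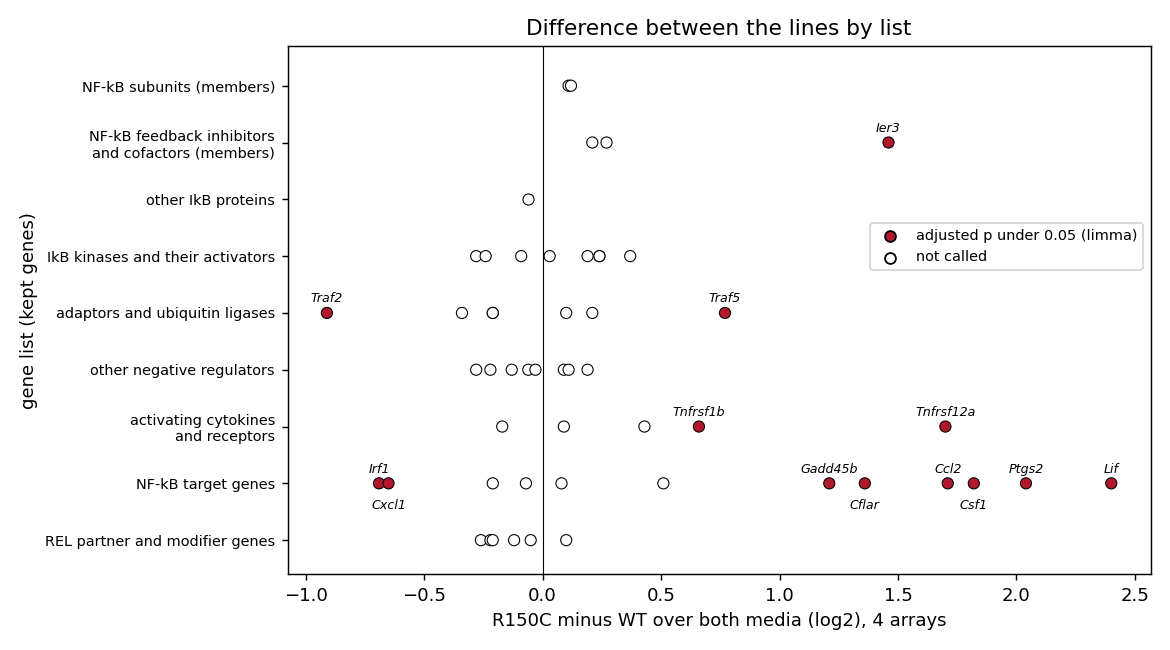
R150C minus WT over both media in log2 for each kept gene of the 9 lists, a point per gene from 4 arrays, filled red where limma's adjusted p was under 0.05. In the target list 6 points lie between 1.21 and 2.40 and 2 at -0.69 and -0.65 are called, while the lists of subunits, kinases, other negative regulators, other IkB proteins and partner genes have no filled point.

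The genes whose pattern over the 4 arrays was nearest to that of Ier3, the 1 called member, were Ccn4, Adam19 and Snai1, by the root mean square distance of gene-centred log2 values, at 0.017, 0.024 and 0.067. Ccn4, a matricellular protein gene, read 719.4 and 754.4 in the R150C line and 246.5 and 262.6 in the WT line. Adam19, a membrane protease gene, read 295.9 and 314.6 against 93.1 and 108.1, and Snai1, a transcription factor gene of epithelial to mesenchymal transition, 491.2 and 470.6 against 164.1 and 178.7. With 4 arrays such a distance describes little more than the gap between the lines.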

How the data were processed

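The values are fluorescence intensities of probe sets, 1 array per group, which the authors deposited. The submitters' processing notes name Affymetrix Expression Console, while the sources used here give neither its version nor the summarisation or detection calls. The equal trimmed mean of the 4 arrays (2% off each end) was read from the deposited intensities. Of 22690 probe sets 64 controls were left out, 20380 of the others had 1 gene symbol, 691 several and 1555 none or were not listed. Symbols were updated through Entrez identifiers for 20351 of them (GRCm38.p6, used for names and promoter windows).

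The members and gene lists were chosen with earlier results of these data known, as was the centring on kept genes. Log2 values (pseudocount 16) were fitted across all kept genes with limma 3.58.1 in R 4.3.3 (lmFit, eBayes, additive model of line and treatment). P-values were adjusted by Benjamini-Hochberg over 6197 genes at 0.05. The fit was run on simulated data with the same SD for every gene, unlike these arrays. That run does not vouch for the p-values given here. The spread behind the p-values is that of these arrays alone and may be technical. All 9 measured members were named, and pathway genes when called or among the 2 farthest from 0 in a list. The alternatives were 3 other scalings, pseudocounts of 1 and 64, no filter or a filter at the 75th percentile, probe sets averaged per gene, a variance trend and, added after the data were seen, a fit of each probe set by itself.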

Additional observations from a re-analysis of the deposited data

Results flagged for a closer look

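In 4 members the single PTHrP differences of the lines had opposite signs, each from 1 array per group, and the gap between the lines was not tested. How many of all genes have opposite signs was not counted, so the number is no trait of the members. The response of the R150C line minus that of the WT line was -0.51 (log2) in Nfkb2, 0.68 in Rel, 0.50 in Relb and -0.45 in Bcl3. The opposite signs of Rel and Bcl3 were lost under other scalings. Rel stood at 0.64 in the R150C line and 0.09 in the WT line with centring on all probe sets, and at 0.67 and 0.05 after quantile normalization. Bcl3 stood at 0.05 in the R150C line and 0.63 in the WT line with centring on all probe sets, and at 0.09 and 0.60 after quantile normalization. Only Nfkb2 of these lay above the filter by its brightest probe set. Its second probe set, which lay below the filter, did not show opposite signs, at -0.13 in the R150C line and -0.09 in the WT line.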

How the results depend on the processing

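The treatment term of the additive model already sets the lines against each other within each medium. No further pairing was possible, because each group has 1 array and the labels give no replicate numbers. Leaving out an array leaves no residual degree of freedom, and the line difference is then that of the remaining medium. Ier3 stayed between 1.39 and 1.51 over the 9 alternatives planned and was called in 8 of them, the exception being no filter. The number of members called higher was 1 in the main setting, 0 without the filter and 2 (Ier3 and Tnfaip3) with probe sets averaged per gene. In that last setting Tnfaip3 kept its signals and entered through a lower filter level. Genes called higher and lower numbered 342 and 259, against 30 and 3 without the filter, and 158 were lower with the filter at the 75th percentile, which tests 3099 genes. Genes called for PTHrP numbered 0, but 1 without centring and 25 with centring on all probe sets, which leaves the kept genes a median PTHrP difference of 0.22 in the WT line. None of these was a member. Signs turned only in values that passed no test. For PTHrP over both lines these were Nfkb2 (-0.0029 as the mean of its probe sets), Nfkbiz (0.06 centred on all probe sets, 0.03 after quantile normalization and 0.04 as the mean of its probe sets), Tnfaip3 (0.04 centred on all probe sets and 0.03 after quantile normalization) and Ier3 (0.00041 centred on all probe sets). In single contrasts, scaling or averaging turned the PTHrP sign of Rel, Nfkbiz, Tnfaip3 and Ier3 in the WT line, that of Bcl3 in the R150C line and the line difference of Relb in control medium. Between the lines they were Nfkbib (0.00095 centred on all probe sets) and Csnk2a1 (0.05 as the mean of its probe sets). With each probe set fitted by itself, a setting chosen after seeing the data, limma's adjusted p was 0.00227 for Ier3 and 0.326 to 0.890 for the 7 other member probe sets above the filter. Dim signals limit Rel, Relb and Bcl3.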
